A study of Homo sapiens with 6 samples.

Results

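Cholesterol and fatty acids are built from acetyl-CoA in the cytosol, and the genes for this work were followed here in LM3 cells, an established human hepatocellular carcinoma (HCC) line. The set held 30 genes, taken as the rows of the deposited table whose gene name was on the list, out of 33007 genes in the table. They comprised 7 enzymes that lead from acetyl-CoA through mevalonate to farnesyl diphosphate, 11 enzymes from squalene to cholesterol, 5 genes of the SREBP factors and their sterol sensors, 3 enzymes of fatty acid synthesis, and 4 genes of sterol transport and esterification. All 30 genes were in the table and all 30 passed the filter on low counts, which left 18390 genes to test.

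RNA-seq compared 3 vector control samples with 3 samples of LM3 cells with stable ZNF706 knockdown. The knockdown was made with short hairpin RNAs in the lentiviral vector pLKO.1 and selection with puromycin. The labels give every sample the genotype WT and liver as tissue, and they list no other agent, time or allele that would separate the groups. Which of the study's hairpins was sequenced is not given in the sources used here, so an effect of ZNF706 loss and an off-target effect of a hairpin cannot be told apart. Nothing in the labels says that the 3 samples of a group came from separate cultures, and the p-values then measure only the spread between these samples, which may be technical.

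The counts per sample summed to 62684076, 64713764 and 63054445 in the vector control group and to 68548419, 65861994 and 69057423 in the knockdown group. Every knockdown sample was therefore sequenced more deeply than every control sample. Mitochondrial genes took 5.403%, 5.187% and 5.4% of all counts in the vector controls and 5.025%, 5.018% and 4.789% after knockdown, without overlap. The part of depth and of the mitochondrial share in the results was not tested. Levels of a gene across samples are given as CPM, the counts of a gene per 1000000 counts of the TMM-scaled library total, and a gene was called higher or lower where edgeR's quasi-likelihood test gave a Benjamini-Hochberg adjusted p below 0.05 over all genes tested.

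The targeted gene ZNF706 (ENSG00000120963) had 51.9, 55.1 and 54.7 CPM in the vector controls and 33.5, 30.8 and 32.8 CPM in the knockdown samples. Its level fell in all 3 knockdown samples, and the groups were far apart. The fitted log2 fold change was -0.73 with a standard error of 0.050 (edgeR's quasi-likelihood test, adjusted p = 3.7e-05), so the level fell by 39.9% and a large part of the transcript remained.

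The labelled tissue was compared with markers of the liver lineage. Of 10 hepatocyte and HCC markers, the keratins KRT8 and KRT18 were abundant, with KRT18 at a mean of 271 FPKM in the control and 261 FPKM in the knockdown group. FPKM is a fragment count divided by gene length and by library size. TTR, SERPINA1, HNF4A, GPC3 and EPCAM stayed below 1 FPKM in every sample, and TTR was listed at 0 in a sample of each group. Albumin (ALB) was at 0.77, 3.54 and 3.57 FPKM in the control and at 2.17, 2.45 and 0.5 FPKM in the knockdown samples. These markers were thus low in both groups. Over the 10 hepatocyte and HCC markers the median log2 fold change was -0.591, with 8 of 10 values negative, 1 gene called lower by edgeR, 3 lower at an unadjusted p below 0.05 and 2 called lower by DESeq2, while the summed level was 456, 466 and 489 FPKM in controls and 454, 470 and 471 FPKM after knockdown. Of the markers of other cell types, the endothelial list summed to between 1.43 and 2.06 FPKM and the fibroblast list to between 7.64 and 9.79 FPKM per sample. Most of the fibroblast sum was COL1A1, at a mean of 7.05 FPKM in the control and 8.4 FPKM in the knockdown group. The leukocyte list summed to 10.7, 10.5 and 11.1 FPKM in the control and 16.8, 18.5 and 16.9 FPKM in the knockdown group, nearly all of it CD68, a lysosomal glycoprotein, which was called higher. PTPRC, the defining leukocyte marker, was between 0 and 0.01 FPKM in every sample. Of the genes of these lists, SERPINA1 and the endothelial CDH5 were called lower, and the fibroblast genes COL1A1 and PDGFRB were called higher, with log2 fold changes of -1.47, -0.70, 0.20 and 0.68. Their part in the results below was not tested. In bulk RNA, fewer cells of a kind and less RNA per cell cannot be told apart.

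Cells make mevalonate from acetyl-CoA, turn it into isoprenoid units, condense these to squalene and close and trim the sterol ring to reach cholesterol. The pathway is governed by SREBP transcription factors, which are held in the endoplasmic reticulum with their escort SCAP by INSIG proteins while sterols are plentiful and released to the nucleus when sterols run low. SREBPs also drive fatty acid synthesis, and the liver is a main site of both pathways.

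The members did not move as a block. Of the 30 genes, 7 were called higher after ZNF706 knockdown (ACAT2, MVK, SQLE, DHCR7, INSIG1, ACLY and FASN) and 4 were called lower (HMGCS1, IDI1, ACACA and STARD4). Changes were small, with log2 fold changes between -0.30 and 0.39, and rises and falls stood next to each other within the mevalonate steps and within fatty acid synthesis. The called share was 36.7% of the members, against 22.8% of all genes tested. In single directions, 23.3% of the members were called higher against 10.4% of all genes, and 13.3% were called lower against 12.4%. The median log2 fold change was 0.049 over the members and 0.010 over all genes tested, and 18 members had a positive and 12 a negative value.

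Most members are abundant transcripts, and abundant genes are called more often. When genes had to reach a mean count of 1000, a minimum chosen after seeing the data, 8512 were left, of which 37.5% were called, 13.2% higher and 24.3% lower. The 27 members above this minimum included all 11 called members, which is 40.7% called, with 25.9% higher and 14.8% lower. The share of members called was thus near that of other abundant genes. CPM did not overlap between the groups for 13 members, or 43.3%, against 39.4% of all genes tested. These were the 11 called genes together with SC5D and SCAP.

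**Figure D1:**
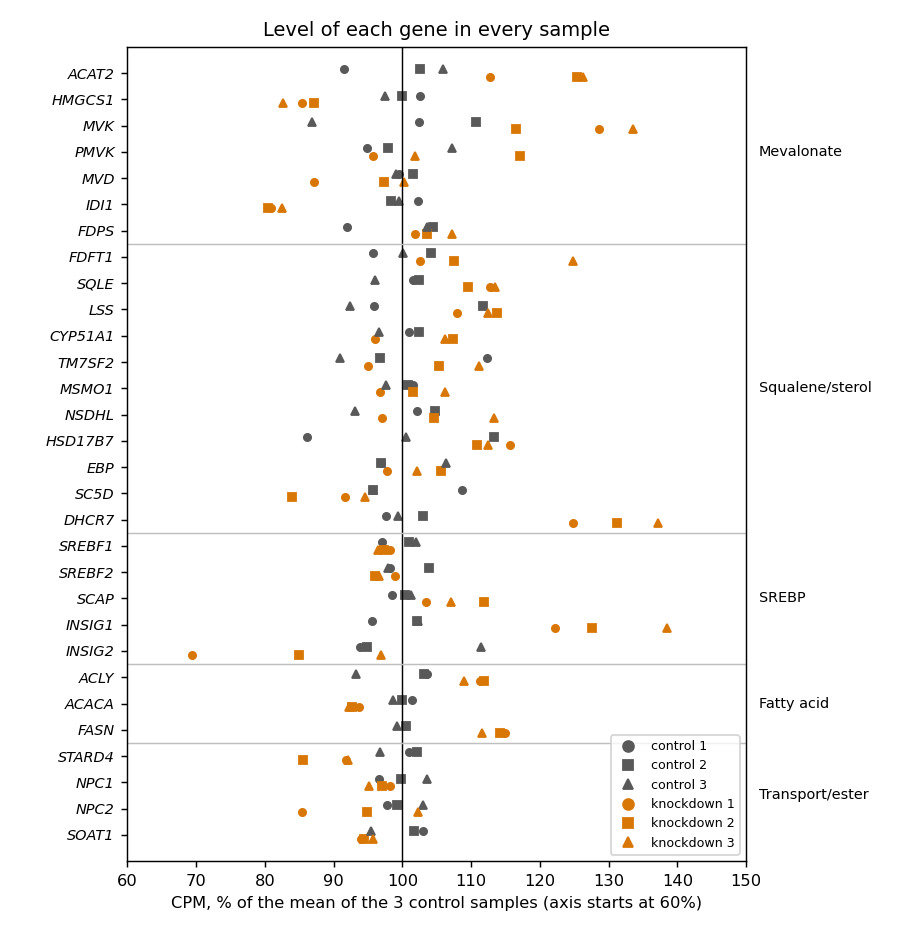
Level of each of the 30 genes in every sample, as CPM in percent of the mean of the 3 control samples (horizontal axis, starting at 60%), with genes in rows by role. Grey marks are the 3 control samples and orange marks the 3 knockdown samples, and both colours separate for 13 of the genes, among them DHCR7 and INSIG1 to the right and IDI1 and HMGCS1 to the left.

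Scaling moved the balance of the calls. With library size alone in place of TMM, 14.9% of all genes were called higher and 8.25% lower, so that 64.4% of the calls were higher against 45.5% with TMM, and limma on log2(FPKM + 0.1) gave 59.7%. The median log2 fold change of all genes was 0.063 under library size alone against 0.010 with TMM. This shift applies to every gene, and values near 0 change sign with it. Under library size alone the members had 10 calls higher and 2 lower and a median of 0.102, and with a correction for GC content their median was 0.014. HMGCS1, IDI1, DHCR7 and INSIG1 were called in the same direction in each of the 16 alternative fits, which included each sample left out in turn.

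These 4 genes comprised a pair that rose and a pair that fell, and the sequence upstream of their start sites is shown for that reason. The promoters are those of RefSeq on GRCh38.p14, 250 bases before to 50 bases after a start site, and each stretch below runs 5′ to 3′ along the gene's strand and was taken only as far as no annotated exon was reached. Capitals mark CCAAT, the box bound by NF-Y, and GGGCGG, the box bound by Sp1, on either strand, so that they also appear as ATTGG and CCGCCC. NF-Y and Sp1 are the factors with which SREBPs are known to act at their promoters. Where RefSeq lists several start sites, a single one is shown. The whole stretch of DHCR7 lies inside the interval that the deposited table gives the gene. The stretches were DHCR7 at chr11:71448436-71448643 (minus strand, from base -250 to base -43), INSIG1 at chr7:155297628-155297775 (plus strand, to base -103), IDI1 at chr10:1049171-1049369 (minus strand, to base -52) and HMGCS1 at chr5:43313513-43313662 (minus strand, to base -101).
DHCR7: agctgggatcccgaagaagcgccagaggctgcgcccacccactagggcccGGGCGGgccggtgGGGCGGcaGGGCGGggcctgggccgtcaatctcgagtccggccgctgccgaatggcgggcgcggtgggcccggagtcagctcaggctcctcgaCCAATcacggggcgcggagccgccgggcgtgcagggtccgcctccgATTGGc
INSIG1: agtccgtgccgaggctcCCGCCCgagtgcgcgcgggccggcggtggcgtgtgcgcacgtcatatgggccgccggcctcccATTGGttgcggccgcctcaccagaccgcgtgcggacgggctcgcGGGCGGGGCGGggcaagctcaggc
IDI1: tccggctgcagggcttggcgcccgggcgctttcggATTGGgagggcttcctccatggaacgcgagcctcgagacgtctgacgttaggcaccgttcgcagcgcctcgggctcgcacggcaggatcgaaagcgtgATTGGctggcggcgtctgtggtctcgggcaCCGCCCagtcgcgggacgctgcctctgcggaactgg
HMGCS1: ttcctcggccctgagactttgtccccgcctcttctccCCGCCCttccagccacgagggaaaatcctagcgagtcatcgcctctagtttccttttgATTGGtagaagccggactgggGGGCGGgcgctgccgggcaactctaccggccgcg

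Both boxes were in the stretches of the genes that rose and of those that fell. The stretch of DHCR7 held 2 CCAAT boxes and 3 GGGCGG boxes, that of INSIG1 held 1 and 3, that of IDI1 held 2 and 1, and that of HMGCS1 held 1 and 2. A pair of the GGGCGG boxes of INSIG1 overlap each other by a base. RefSeq promoters were matched for 26 of the 30 genes (all but ACAT2, FDFT1, SQLE and FASN). Over the whole windows, on both strands and in any window of a gene, CCAAT was found in 20 of the 26 (76.9%), against 42.9% of the 11360 tested genes with a promoter and 39.7% of all 27305 genes with one. GGGCGG was found in 25 of 26 (96.2%), against 74.6% and 48.3%. The E-box CACGTG, which reads the same on both strands, was found in LSS, SC5D, SCAP and INSIG1 (15.4%), against 12.4% and 8.77%. The SREBP element, searched as TCACNCCAC, was in a single member (3.85%) against 1.43% of tested genes and 1.39% of all genes. That gene was SREBF2, which encodes an SREBP itself, with the match starting at base -133 before the start site, shown with its neighbours at chr22:41832962-41832990 on the plus strand.
SREBF2: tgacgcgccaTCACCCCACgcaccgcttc

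By call, CCAAT was in all 4 matched genes that were called higher, in all 4 that were called lower and in 12 of the 18 that were not called. In the same order, GGGCGG was in 4, 4 and 17 genes, CACGTG in 1, 0 and 3, and TCACNCCAC in 0, 0 and 1. A match is a description of the letters, not of binding, and the windows are short.

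The first enzymes of the mevalonate route moved in both directions. ACAT2, the cytosolic thiolase that joins acetyl-CoA to acetoacetyl-CoA (chr6:159762045-159779112, plus strand), had 51.8, 58.0 and 59.9 CPM in the vector controls and 63.8, 70.9 and 71.4 CPM in the knockdown samples. The groups did not overlap, although control 1 and knockdown 1 were both the lowest of their groups. The log2 fold change was 0.28 with a standard error of 0.062 (edgeR, adjusted p = 0.010), and without knockdown replicate 2 it was 0.26 with an adjusted p of 0.052. ACAT2 shares 615 bases with TCP1 on the opposite strand, whose mean count was 44500 in the control and 49700 in the knockdown group with a log2 fold change of 0.01. Whether strand was used in counting is not given in the sources used here, and reads in the shared bases cannot be assigned.

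HMGCS1 adds the next acetyl unit to give HMG-CoA and lies at chr5:43287470-43313512 on the minus strand. It had 99.1, 96.5 and 94.2 CPM in the vector controls and 82.5, 84.2 and 79.8 CPM in the knockdown samples. All knockdown samples were below all control samples by a margin wider than the range of either group. It fell by 14.9%, a log2 fold change of -0.23 with a standard error of 0.037 (adjusted p = 0.0020 in edgeR). Across the 16 alternative fits it lay between -0.25 and -0.16.

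MVK, the kinase that phosphorylates mevalonate (chr12:109573255-109598117, plus strand), had 21.1, 22.8 and 17.9 CPM in the control and 26.5, 24.0 and 27.5 CPM in the knockdown samples. Control 2 and knockdown 2 lay close to each other, and control 3 was the lowest. The log2 fold change was 0.34 with a standard error of 0.098 (edgeR, adjusted p = 0.033). It was no longer called without control replicate 1 (adjusted p = 0.069), control replicate 3 (0.092), knockdown replicate 1 (0.090) or knockdown replicate 3 (0.10), with a correction for GC content (0.068) or with no filter (0.091). MVK shares 326 bases with MMAB, a cobalamin enzyme gene that is read from the opposite strand. MMAB had 96.0% of the mean count of MVK and was called higher too, at 0.36 on the log2 scale (adjusted p = 0.013 in edgeR).

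PMVK and MVD, which carry mevalonate phosphate to isopentenyl diphosphate, were not called. PMVK had means of 13.1 ± 0.821 CPM in controls and 13.7 ± 1.47 CPM after knockdown (SD, n = 3 each), and MVD had 23.5 ± 0.298 and 22.3 ± 1.60 CPM. IDI1, the isomerase that interconverts the isoprenoid building blocks (chr10:1039152-1049170, minus strand), had 104.3, 100.2 and 101.4 CPM in the control and 82.5, 82.1 and 84.1 CPM in the knockdown samples. The samples of each group lay close together, and the groups were well apart. IDI1 fell by 18.7%, with a log2 fold change of -0.30 and a standard error of 0.034 (adjusted p = 0.00036 in edgeR), the lowest value among the 30 genes. IDI2-AS1 overlaps IDI1 on the opposite strand and had 0.899% of its count. FDPS, which makes farnesyl diphosphate, was not called, with 209.1 ± 14.5 CPM in controls and 218.0 ± 5.65 CPM after knockdown.

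Of the 7 mevalonate genes, 2 were thus called higher and 2 lower, and their median log2 fold change was 0.06. Without knockdown replicate 2 this median was -0.020, and with a correction for GC content it was 0.006. The median deviation of these genes from their mean over all samples was -0.103, 0.034 and 0.024 on the log2 scale in the control and -0.098, 0.023 and 0.043 in the knockdown samples. The groups overlapped in this measure, and the samples numbered 1 were the lowest of both.

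**Figure D2:**
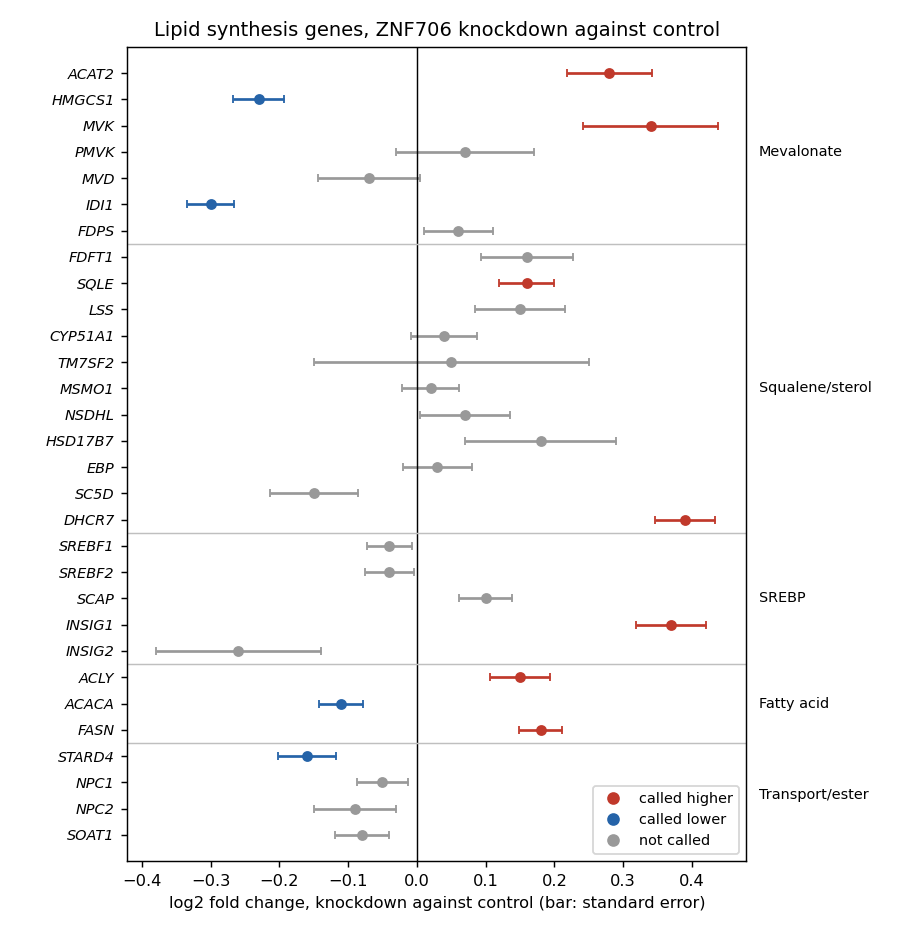
Fitted log2 fold change of each of the 30 genes, knockdown against control (horizontal axis), with bars of 1 standard error and genes grouped by role. Red points are the 7 genes called higher, blue points the 4 called lower and grey points the 19 not called, and every point lies between -0.30 and 0.39.

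In the squalene and sterol branch, DHCR7 had the largest change. DHCR7 encodes the reductase that makes cholesterol from its direct precursor (chr11:71428193-71452868, minus strand) and had 97.0, 102.3 and 98.7 CPM in the control and 124.0, 130.3 and 136.2 CPM in the knockdown samples. Every knockdown sample was above every control sample, and knockdown 3 was the highest. The rise was 31.1%, or 0.39 on the log2 scale with a standard error of 0.043 (adjusted p = 0.00030 in edgeR). It lay between 0.34 and 0.44 in all 16 alternative fits. An exact two-sided permutation test with 3 samples against 3 cannot give a p below 0.10, which is the value that groups without overlap reach.

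SQLE, the squalene epoxidase and a control point of the pathway, had 60.4, 60.9 and 57.1 CPM in the control and 67.0, 65.1 and 67.5 CPM in the knockdown samples. The groups did not overlap, and the log2 fold change was 0.16 with a standard error of 0.040 (edgeR, adjusted p = 0.017). The call was lost without control replicate 3 (adjusted p = 0.065) and without knockdown replicate 3 (0.054). The enzymes on either side of it, FDFT1, the squalene synthase, and LSS, which closes the sterol ring, were not called. FDFT1 had 213.2, 231.8 and 222.8 CPM in the control and 228.2, 239.3 and 277.9 CPM in the knockdown samples, with knockdown 3 far above the rest, and an adjusted p of 0.12 in edgeR. DESeq2 called FDFT1 higher (log2 fold change 0.16, adjusted p = 0.021), as did edgeR without knockdown replicate 1 (0.047). LSS stood at 0.15 on the log2 scale (adjusted p = 0.13 in edgeR) and was called higher without control replicate 2 (0.24, adjusted p = 0.013), the control sample that overlapped the knockdown group.

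The enzymes that trim lanosterol were not called. CYP51A1, which removes a methyl group from lanosterol, had 124.5 ± 3.82 CPM in controls and 128.4 ± 7.78 CPM after knockdown. MSMO1, NSDHL and HSD17B7, which remove the remaining methyl groups, had log2 fold changes of 0.02, 0.07 and 0.18 and adjusted p-values of 0.78, 0.50 and 0.27 in edgeR's test. HSD17B7 has a near copy in the table, a pseudogene with 8.21% of its counts, and its level is uncertain to that extent. EBP, a sterol isomerase, had 51.7 ± 2.82 and 52.7 ± 2.01 CPM, and TM7SF2, a sterol reductase, had 1.74 ± 0.194 and 1.80 ± 0.140 CPM (SD, n = 3 each). SC5D, the desaturase that acts just before DHCR7, had 56.2, 49.5 and 49.5 CPM in the control and 47.4, 43.4 and 48.9 CPM in the knockdown samples. Its groups did not overlap, but the nearest samples differed by less than the range of either group, and the log2 fold change of -0.15 was not called (edgeR, adjusted p = 0.12).

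Of the 11 genes of this branch, 2 were called higher and none lower by edgeR. At an unadjusted p below 0.05, 4 were higher and 1 was lower, and DESeq2 called 3 higher and 0 lower. Over all genes, DESeq2 called 2076 higher and 2342 lower. The share of all genes at an unadjusted p below 0.05 was not counted. Unadjusted counts here and for the other lists therefore have no background to be read against. Fitted values were positive for 10 of 11 genes, although that of TM7SF2 was -0.03 with a correction for GC content and that of EBP was then 0. The median was 0.07, and the samples of both groups overlapped in their median deviation. Under library size alone, 4 of these genes were called higher.

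The transcripts of the SREBP factors themselves were not called. SREBF1, whose product chiefly drives fatty acid synthesis, had 196.9, 205.0 and 206.9 CPM in the control and 199.4, 197.6 and 195.7 CPM in the knockdown samples. SREBF2, whose product chiefly drives cholesterol synthesis and whose promoter match is shown above, had 216.5, 228.9 and 215.6 CPM in the control and 218.0, 211.5 and 212.9 CPM in the knockdown samples. The groups overlapped for both genes, and the log2 fold change was -0.04 for each and turned to 0.02 for SREBF1 and 0.01 for SREBF2 under library size alone, which is about the shift of all genes. With a correction for GC content, SREBF1 was called lower at -0.12 (edgeR, adjusted p = 0.025). SREBF1 shares 1055 bases with RAI1 on the opposite strand, which had 46.6% of its count and a log2 fold change of -0.32. mRNA levels do not show how much SREBP is cleaved and nuclear.

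INSIG1, the sterol-dependent anchor of the SREBP complex and a known SREBP target (chr7:155297776-155310233, plus strand), had 71.0, 75.8 and 76.0 CPM in the control and 90.7, 94.7 and 102.8 CPM in the knockdown samples. All knockdown samples were above all control samples. Its rise was 29.3%, or 0.37 on the log2 scale with a standard error of 0.051 (adjusted p = 0.00092 in edgeR), and the log2 value lay between 0.32 and 0.42 in the alternative fits. Its relative INSIG2, which anchors the same complex, had 18.1, 18.3 and 21.5 CPM in the control and 13.4, 16.4 and 18.7 CPM in the knockdown samples. INSIG2 was not called, at -0.26 on the log2 scale (adjusted p = 0.18 in edgeR), and its groups overlapped because knockdown 3 lay above 2 control samples. SCAP, the escort of SREBPs, had 83.7, 85.3 and 86.1 CPM in the control and 87.9, 95.1 and 91.1 CPM in the knockdown samples, with no overlap and a log2 fold change of 0.10 that was not called (edgeR, adjusted p = 0.087). SCAP was called higher without knockdown replicate 1 (0.13, adjusted p = 0.049), under library size alone (0.16, adjusted p = 0.015) and with limma on log2(FPKM + 0.1) (adjusted p = 0.025).

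Of these 5 regulators, 1 was thus called higher and none lower by edgeR, with 2 higher and 0 lower at an unadjusted p below 0.05, and with 1 and 0 by DESeq2. With a correction for GC content, 1 was called lower (SREBF1, above) and the median was -0.086. Their median of -0.039 without it turned positive, to 0.015, under library size alone and to 0.010 and 0.009 with limma, and the move under library size alone was about the shift of all genes.

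All 3 enzymes of fatty acid synthesis were called, and not in the same direction. ACLY, which splits citrate to cytosolic acetyl-CoA and so feeds both pathways (chr17:41866917-41930542, minus strand), had 272.0, 271.1 and 245.1 CPM in the control and 292.2, 293.9 and 286.4 CPM in the knockdown samples. Control 3 was far below the other samples. The log2 fold change was 0.15 with a standard error of 0.043 (edgeR, adjusted p = 0.036), and the call was lost without control replicate 2 (adjusted p = 0.052), control replicate 3 (0.097), knockdown replicate 1 (0.084), knockdown replicate 2 (0.12) or knockdown replicate 3 (0.056), with a correction for GC content (0.060) and with no filter (0.11).

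ACACA, the carboxylase that makes malonyl-CoA (chr17:37084992-37406836, minus strand), had 130.8, 128.8 and 127.2 CPM in the control and 120.8, 119.5 and 119.0 CPM in the knockdown samples. The groups were tight and did not overlap, and the log2 fold change of -0.11 had a standard error of 0.032 (edgeR, adjusted p = 0.040). This call was lost with any sample left out, with adjusted p-values of 0.095, 0.089 and 0.062 without control replicates 1, 2 and 3 and of 0.062, 0.13 and 0.088 without knockdown replicates 1, 2 and 3. It was also lost under library size alone (-0.05, adjusted p = 0.31) and with both limma fits (0.27 each).

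FASN, the synthase that builds palmitate from malonyl-CoA (chr17:82078338-82098294, minus strand), had 241.3, 241.5 and 238.4 CPM in the control and 276.4, 274.6 and 268.1 CPM in the knockdown samples. The knockdown samples stood clear of the control samples, and each group was narrow. FASN rose by 13.6%, or 0.18 on the log2 scale with a standard error of 0.031 (adjusted p = 0.0024 in edgeR). It was called with every sample left out, and with a correction for GC content it was 0.09 (adjusted p = 0.071). The median of the 3 genes was 0.146, and their median deviation was -0.022, -0.027 and -0.104 in the control and 0.081, 0.089 and 0.052 in the knockdown samples, without overlap. With the GC correction that median was 0.089, and no gene of the 3 was called higher.

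The genes that move and store cholesterol had negative values throughout with TMM scaling, and 1 of 4 was called lower by edgeR and DESeq2 alike. In edgeR, 12.4% of all genes tested were called lower, and 24.3% of those with a mean count of at least 1000. STARD4, a soluble carrier of sterol between membranes (chr5:111496033-111512590, minus strand), had 93.7, 94.8 and 89.8 CPM in the control and 85.2, 79.3 and 85.4 CPM in the knockdown samples. The groups did not overlap, and knockdown 2 was the lowest. The log2 fold change was -0.16 with a standard error of 0.042 (edgeR, adjusted p = 0.024). The call was lost without control replicate 1 (adjusted p = 0.063), control replicate 2 (0.084) or knockdown replicate 2 (0.11), under library size alone (0.12), with both limma fits (0.10 each), with no filter (0.053) and with a correction for GC content, where the value was -0.04 (0.54). STARD4-AS1 lies on the opposite strand, shares 2195 bases with STARD4 and had 16.6% of its count.

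NPC1 and NPC2, which pass cholesterol out of the lysosome, and SOAT1, which esterifies it for storage, were not called. NPC1 had 127.1 ± 4.40 CPM in controls and 123.1 ± 2.03 CPM after knockdown, NPC2 had 143.8 ± 3.92 and 135.5 ± 12.1 CPM, and SOAT1 had 108.9 ± 4.41 and 103.1 ± 0.999 CPM (SD, n = 3 each). The 4 log2 fold changes lay between -0.16 and -0.05 with a median of -0.082. Under library size alone the median was -0.029, and the value of NPC1 turned to 0.01. No gene was higher at an unadjusted p below 0.05. The median deviation of the 4 genes was 0.047, 0.048 and 0.053 in the control and -0.047, -0.038 and -0.032 in the knockdown samples, without overlap. NPC1 shares 25639 bases with RMC1 on the opposite strand, which had 12.6% of its count.

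Per gene length, the members spanned a wide range of levels. Over all 6 samples, FDPS was the most abundant at a mean of 50.4 FPKM, followed by NPC2 at 47.4, ACLY at 46.7, FDFT1 at 39.8 and CYP51A1 at 31.5 FPKM. FDPS exceeded 96.1% of the tested genes in mean FPKM. At the other end were MVK at 3.15 FPKM, HSD17B7 at 2.44 FPKM and TM7SF2 at 0.435 FPKM, which is above only 27.0% of the tested genes. Among the genes called in every fit, DHCR7 was at 24.5, INSIG1 at 20.5, IDI1 at 18.6 and HMGCS1 at 11.8 FPKM. Both SREBP genes were at similar levels, 25.2 FPKM for SREBF2 and 21.3 FPKM for SREBF1. INSIG2, at 3.93 FPKM, was far below INSIG1.

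**Figure D3:**
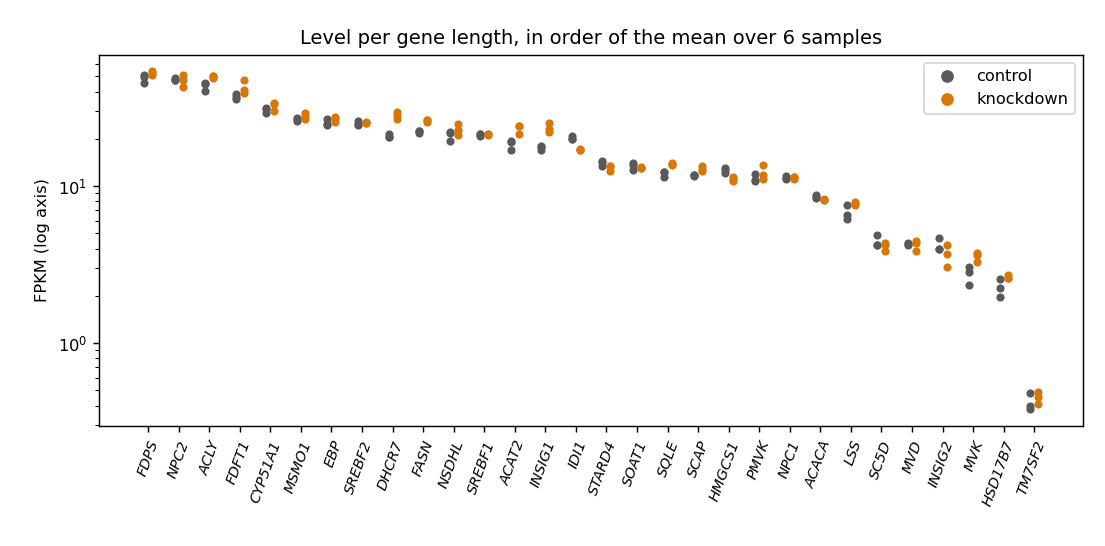
FPKM of the 30 genes in each of the 6 samples on a logarithmic axis, with the genes in order of their mean over all samples. Grey points are the 3 control samples and orange points the 3 knockdown samples, and the order runs from FDPS with a mean of 50.4 FPKM to TM7SF2 with 0.435 FPKM.

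The genes around the pathway were taken from 8 further lists with 100 genes, of which 91 were tested. Of these, 14 were called higher and 15 lower, which is 31.9%, against 22.8% of all genes tested. Among abundant genes, by the minimum of 1000 counts applied to the members above, the called share was 37.5%. Many of the listed genes are abundant too, and their called share above this minimum was not counted. The 31.9% is therefore not read as an excess. The regulators of SREBP processing and sterol-dependent degradation had 3 of 12 genes called lower and none higher by edgeR and DESeq2, with 1 higher at an unadjusted p below 0.05, and a median of -0.046. TMEM97, a sterol-binding membrane protein that is known to interact with NPC1, fell by 0.26 on the log2 scale and UBE2G2, a ubiquitin-conjugating enzyme of endoplasmic reticulum degradation, fell by 0.17. The call of UBE2G2 was lost without control replicate 2 or knockdown replicate 2 (adjusted p up to 0.064), and under library size alone (-0.11, 0.076) and with both limma fits (up to 0.075).

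The branches that draw isoprenoids away from sterols had 1 gene called higher and 3 lower of 14, with a median of -0.059. GGPS1, which makes geranylgeranyl diphosphate, rose by 0.25 on the log2 scale, a call that was lost without control replicate 2, control replicate 3 or knockdown replicate 3 (adjusted p up to 0.072). RABGGTB, a subunit of the enzyme that prenylates Rab proteins, fell by 0.35, NUS1, a subunit of the dolichol-making prenyltransferase, fell by 0.26, and ICMT, which methylates prenylated proteins, fell by 0.24 on the same scale. ICMT was abundant, with 347.1 ± 4.55 CPM in controls and 294.6 ± 6.92 CPM after knockdown (SD, n = 3 each).

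Fatty acid precursor supply and elongation had 4 genes called higher and 3 lower of 18 tested, with a median of 0.075. ACACB, the mitochondrial counterpart of ACACA, had 9.29, 10.1 and 6.95 CPM in the control and 12.8, 13.3 and 13.8 CPM after knockdown, which is 0.60 on the log2 scale (adjusted p = 0.010 in edgeR) where that of ACACA was -0.11. SLC25A1, which exports citrate from mitochondria for ACLY, rose by 0.32, ME1, which supplies NADPH, rose by 0.26, and HACD3, a dehydratase of the elongation cycle, fell by 0.21 on that scale. Of the fatty acid oxidation genes, 4 were called higher and 3 lower of 14 tested, with a median of 0.018. ECI2, an isomerase for unsaturated fatty acids, rose by 0.29 on the log2 scale, CPT2, which passes fatty acids into mitochondria, rose by 0.28, and ECHS1, a mitochondrial hydratase, rose by 0.21. ECHS1 was not called without control replicate 1, control replicate 2 or knockdown replicate 2 (adjusted p up to 0.074), nor with a correction for GC content or no filter (0.061 each). The 3 genes called lower, which are named here after their values were seen, were the acyl-CoA dehydrogenases ACADVL and ACADM, at -0.20 each, and ECI1, an isomerase related in function to ECI2, at -0.19. ECI1 was not called without control replicate 2, control replicate 3, knockdown replicate 1 or knockdown replicate 2 (adjusted p up to 0.086), under library size alone, with limma or with no filter.

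In glycerolipid assembly, 2 of 9 genes were called lower and none higher by edgeR, with 4 lower and 0 higher at an unadjusted p below 0.05 and 3 and 0 by DESeq2. PLIN2, the coat protein of lipid droplets, had 676.6, 749.2 and 710.0 CPM in the control and 506.9, 519.6 and 530.9 CPM in the knockdown samples. The groups were far apart, and the log2 fold change was -0.46 with a standard error of 0.040 (edgeR, adjusted p = 9.9e-05). LPIN1, a phosphatidate phosphatase, fell by 0.17 on the log2 scale, a call that was lost under library size alone (-0.12, adjusted p = 0.077) and with limma on log2(FPKM + 0.1) (0.11) and log2(FPKM + 1) (0.12).

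Sterol uptake and transport had 3 genes called higher and 1 lower of 15 tested, with a median of -0.015. LIPA, the lysosomal acid lipase that frees cholesterol from its esters, had 30.4, 31.6 and 32.9 CPM in the control and 42.4, 42.9 and 43.3 CPM after knockdown, which is 0.44 on the log2 scale (adjusted p = 0.00036 in edgeR). VLDLR, a lipoprotein receptor, rose by 0.31, SCARB1, the HDL receptor, rose by 0.11 and GRAMD1B, a sterol transporter at membrane contacts, fell by 0.15 on this scale. SCARB1 was not called with any sample left out (adjusted p up to 0.11), with a correction for GC content (0.10) or with no filter (0.056). Of the fits with a sample left out, VLDLR was called only in that without control replicate 2 (up to 0.13 otherwise). It was also not called with no filter (0.070), with limma (up to 0.070) or with the replicate number as a block (0.061). GRAMD1B was not called without knockdown replicate 2 (0.054), under library size alone (0.067) or with both limma fits (up to 0.056). Of 7 LXR and efflux genes, NR1H3, which encodes the oxysterol-sensing LXR alpha, was called higher, with a log2 fold change of 0.31. Of the oxysterol and bile acid genes, 2 of the 6 in the table passed the filter on low counts, and HSD3B7, an enzyme of bile acid synthesis, was called higher at 0.54 (edgeR, adjusted p = 0.00036). CYP7B1 was not analysed here.

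**Figure D4:**
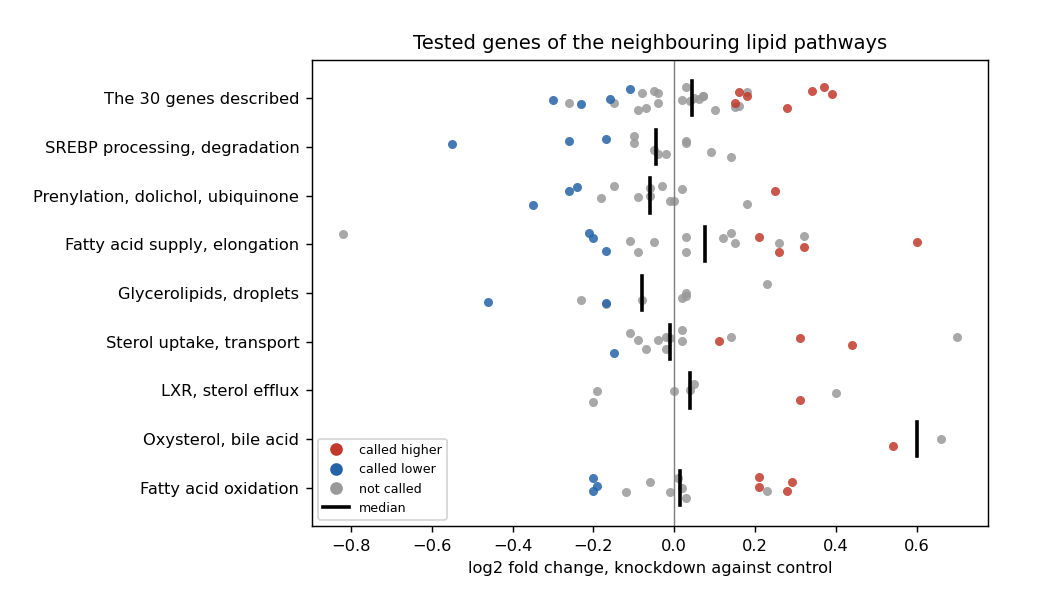
Fitted log2 fold changes, knockdown against control (horizontal axis), of every tested gene of the 30 described genes and of 8 lists of neighbouring lipid pathways (rows). Red points are genes called higher, blue points genes called lower, grey points genes not called, and black bars the median of a row, and every row but those of LXR and oxysterol genes, SREBP processing and glycerolipids has both red and blue points.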

How the data were processed

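RNA-seq of 6 LM3 samples was analysed. Per the paper's methods and the submitters' processing notes, reads were trimmed with cutadapt 1.9, checked with FastQC and mapped with HISAT2 to GRCh38. The authors deposited raw counts per gene and FPKM, which they scaled to gene length and library size, for each sample. The counting program, its use of strand and the annotation release are not given in the sources used here. In edgeR 4.0.16 (R 4.3.3), low counts were removed by filterByExpr, libraries were scaled by TMM, and groups were compared by glmQLFTest after glmQLFit, with group as the only term and Benjamini-Hochberg adjustment over 18390 genes. The study used DESeq2 for this comparison, which was an alternative here (DESeq2 1.42.0). Gene positions overlapped GENCODE release 29 for 99.88% of 32092 shared genes. The 30 members and the lists were chosen with earlier results of these data known. Genes of the other lists were named if called, up to 4 per list with the largest change. Some results under this rule are not reported here. Alternatives were other scalings and filters, limma 3.58.1 on log2(FPKM + 0.1) and log2(FPKM + 1) where mean FPKM reached 1, a replicate block, a lowess correction for GC content, and each sample left out. MMAB, TCP1, RAI1 and other overlapping genes were named because they overlap a member.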

Additional observations from a re-analysis of the deposited data

How the results depend on the processing

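ZNF706 stayed called lower in all 16 alternatives (-0.77 to -0.70 with a sample left out). No call of a member reversed. A mean count of at least 1000 was reached by 27 of the 30 members, and each comparison rests on 3 samples a group. The cause of the following shifts was not tested. Over all genes, 1253 were called higher with no filter and 1518 lower under library size alone, and with a sample left out 1148 to 1485 were higher and 1500 to 1939 lower, the fewest in both directions without knockdown replicate 2. With the GC correction 4 members were called higher. Under library size alone and with both limma fits 2 members were called lower, and the members' median was 0.102 under library size alone and 0.092 with limma on log2(FPKM + 0.1), where that of all genes was 0.063 and 0.027 against 0.010, and it was 0.014 with the GC correction, where that of all genes was 0.018. Of the mevalonate genes 1 was called higher with the GC correction, with it and the replicate block, and with no filter. Of the squalene and sterol genes 4 were called higher under library size alone, and their median was 0.160 and 0.140 with the limma fits. Of the SREBP regulators 2 were called higher under library size alone and with both limma fits, 1 was called lower with the GC correction with and without the block, and the median was -0.086 in the latter fits and 0.015, 0.010 and 0.009 in the former. Of the fatty acid enzymes 0 were called higher with the GC correction, 1 with it and the block and 1 with no filter, and 0 were called lower under library size alone and with both limma fits, with medians of 0.089 with the GC correction, 0.200 under library size alone and 0.196 and 0.192 with limma. Of the transport genes 0 were called lower with no filter and in the GC, library size and limma fits, with medians of -0.048 with GC and block, -0.047 with GC, -0.029 under library size alone and -0.035 and -0.034 with limma.

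With a sample left out, 4 to 7 members were called higher and 2 to 3 lower, and the members' median was 0.018 to 0.086. The mevalonate genes had 1 to 2 called higher, 2 to 2 lower and a median of -0.020 to 0.083, and the squalene and sterol genes had 1 to 3 called higher and a median of 0.024 to 0.125. The SREBP regulators had 1 to 2 called higher and a median of -0.058 to -0.015. The fatty acid enzymes had 1 to 2 called higher, 0 lower and a median of 0.096 to 0.168, and the transport genes had 0 to 1 called lower and a median of -0.117 to -0.065.

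Replicate numbers did not pair the samples: deviations of control and knockdown samples with the same number correlated at -0.0283 to 0.0294, and those with different numbers at -0.0523 to 0.0269. With the number as a replicate block, 1967 genes were called higher and 2394 lower, and all 30 members kept their side of the threshold. Of the other genes named, VLDLR was not called with the block (adjusted p = 0.061).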
